A study of Rattus norvegicus with 24 samples.

Results

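Galanin and 9 other secreted peptide precursors of the sensory ganglion were followed in the DRG (dorsal root ganglia, which hold the cell bodies of primary sensory neurons) of 24 rats. The 10 genes (Gal, Npy, Sst, Adcyap1, Nts, Cartpt, Nmb, Vip, Scg2 and Vgf) were taken by symbol from the deposited expression table. They make up 11 of its 17811 entries, since Npy is listed at 2 places. All rats were female Sprague-Dawley rats operated at 12 weeks of age and examined at 20 weeks. The OVX-TPTD group was ovariectomized (OVX) and received teriparatide (TPTD, a fragment of parathyroid hormone given for osteoporosis) under the skin at 30 µg/kg, 3 times a week for the last 4 weeks. Rats of the OVX-vehicle group had the same operation and were given saline on that schedule. In the Sham-vehicle group the ovaries were exposed but left in place and saline was given. Each group had 8 rats with 1 library each, made from the L4-5 lumbar ganglia. The study picked the 8 rats of a group for values close to the group's average in body weight and a heat withdrawal test, so their spread may be narrower than that of unselected rats. The comparison of OVX-vehicle with Sham-vehicle rats addresses what OVX does to the ganglion, and that of OVX-TPTD with OVX-vehicle rats what TPTD does after OVX.

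Neuropeptides are cut from larger precursor proteins, stored in dense-core vesicles and released from the endings of sensory neurons in the spinal cord and the periphery, where they act on G protein-coupled receptors. Galanin (Gal), neuropeptide Y (Npy) and vasoactive intestinal peptide (Vip) are known in rat DRG for low levels in intact animals and strong induction after nerve injury. Somatostatin (Sst) and neuromedin B (Nmb) mark subsets of small sensory neurons, and the secretogranin Scg2 and Vgf are granule proteins that also yield active peptides. In these ganglia Scg2, Sst and Nmb were the most abundant of the 10 precursors, followed by Adcyap1 (which encodes PACAP), Gal and Vgf, then Cartpt, Npy and Nts, with Vip at the limit of counting. Gal, Scg2 and Vip were lower in OVX-vehicle than in Sham-vehicle rats at an unadjusted exact p under 0.05. None of the 10 genes passed adjustment over all genes in any comparison. The study itself had picked Gal on these samples, so that its values here are not independent evidence of its direction. By quantitative PCR, the study also reported Gal as lower after OVX.

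The promoters of the precursors are shown first, because several of them carry the cAMP response element, a motif known from neuropeptide gene promoters. The sequences are from RefSeq (rat build GRCr8, which differs from the build rn6 of the expression table), and each window covers 250 bases before and 50 bases from the annotated start site. All 10 genes matched a window. The Gal window is at chr1:210084523-210084822 on the minus strand, with the motifs TGACG and TATAAA in capitals.

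Gal: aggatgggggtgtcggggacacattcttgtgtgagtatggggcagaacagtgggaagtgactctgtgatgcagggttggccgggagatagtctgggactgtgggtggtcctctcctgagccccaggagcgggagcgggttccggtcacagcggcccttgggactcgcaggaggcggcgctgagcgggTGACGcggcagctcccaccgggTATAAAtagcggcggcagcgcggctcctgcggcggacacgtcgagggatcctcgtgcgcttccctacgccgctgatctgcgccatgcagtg

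The motif TGACGTCA, the full cAMP response element, reads the same on both strands and was present in 4 of the 10 windows (Sst, Cartpt, Scg2 and Vgf), against 1.83% of 33469 rat promoters of the same length. Its shorter form TGACG, searched on both strands and contained in every full element, was present in 7 of 10 windows, against 21.2% of all promoters. It starts at base -63 in Gal and at base -97 in Vip, counted from the start site with the first transcribed base as 1. Counted likewise, the full element starts at base -142 in Cartpt, -123 in Scg2 and -90 in Vgf. In Sst it starts at base 3, past the annotated start site. The stretches around the match in the other 6 precursors that have one were as follows, with the matched bases in capitals, and they show that Gal and Vip carry the shorter form on the plus orientation of the gene while Nts carries its reverse complement.

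Sst: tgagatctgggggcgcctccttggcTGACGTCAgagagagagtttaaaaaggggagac

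Cartpt: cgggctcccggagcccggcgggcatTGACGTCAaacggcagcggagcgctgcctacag

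Scg2: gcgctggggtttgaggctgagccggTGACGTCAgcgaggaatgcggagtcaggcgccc

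Vgf: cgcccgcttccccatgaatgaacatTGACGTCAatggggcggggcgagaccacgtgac

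Vip: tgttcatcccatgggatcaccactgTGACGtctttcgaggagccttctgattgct

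Nts: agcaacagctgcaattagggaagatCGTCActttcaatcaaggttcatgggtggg

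On GRCr8 these stretches are at chr11:90461523-90461580 (plus strand) for Sst, chr2:32991345-32991402 (minus) for Cartpt, chr9:88256957-88257014 (minus) for Scg2, chr12:25277078-25277135 (minus) for Vgf, chr1:44470358-44470412 (plus) for Vip and chr7:39461030-39461084 (minus) for Nts. The AP-1-like motif TGANTCA, searched with any base at N, was present in the Nts window alone among the 10 genes and in 7.33% of all promoters. The palindromic consensus estrogen response element was present in 0 of the 10 windows and in 0.0269% of all promoters. At so low a share, 0 of 10 does not set these genes apart, and imperfect copies were not searched. TATAAA was present on either strand in 4 of the 10 windows (Gal, Adcyap1, Vip and Vgf) and in 14.2% of all promoters. The motifs were chosen after the sequences had been seen, a match describes letters only, and the expression data do not test binding.

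The tissue carried the markers of a sensory ganglion in every rat. The 6 neuronal markers (Rbfox3, Tubb3, Uchl1, Snap25, Nefl and Prph) summed to 9630 to 10800 FPKM in OVX-TPTD rats, 9660 to 11100 FPKM in OVX-vehicle rats and 9720 to 11000 FPKM in Sham-vehicle rats, where FPKM is the fragments scaled by gene length and library. The table held between 15573490 and 19069926 counts per rat. The title of OVX-vehicle replicate 1 places it in the OVX group while its surgery label reads sham. It was kept as OVX-vehicle, and for Gal, Scg2, Vip and some of the other genes the values without it or with it counted as Sham-vehicle are also given. No sequencing batch is given in the sources used here. Separate rats are the replicates, and in bulk ganglia fewer cells of a type and less RNA per cell cannot be told apart.

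In the Sham-vehicle group, Scg2 was the most abundant precursor at 214 ± 27.7 FPKM (SD, n = 8 in this and the following group means). By the mean over all 24 rats, Scg2 lay above 97.9% of the entries of the table. Sst followed with 95.6 ± 15.5 FPKM and Nmb with 69.9 ± 7.86 FPKM. Their ranges overlapped, but Sst exceeded Nmb within 7 of the 8 rats. Adcyap1 was at 24.7 ± 2.12 FPKM, apart from Nmb above it and Gal below it in every rat. Gal at 10.7 ± 2.43 FPKM and Vgf at 10.6 ± 2.28 FPKM could not be ordered, since Gal was the higher in 4 of the 8 rats. Cartpt at 2.28 ± 0.527 FPKM, Npy at 2.09 ± 1.06 FPKM and Nts at 2.08 ± 0.571 FPKM overlapped as well. Vip was at 0.195 ± 0.0985 FPKM, from 2 to 9 counts per rat. On rn6, Sst lies at chr11:80358262-80359447 (plus strand), Nmb at chr1:142721263-142724007 (minus), Adcyap1 at chr9:121707926-121713124 (minus), Vgf at chr12:22677607-22680630 (minus), Cartpt at chr2:30125249-30127269 (minus), Nts at chr7:44111594-44120998 (minus) and Vip at chr1:42169501-42177581 (plus).

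Gal encodes galanin, a peptide that acts on the receptors Galr1, Galr2 and Galr3 and modulates pain transmission in the spinal cord. On rn6 the gene lies at chr1:218653059-218657922 on the minus strand. In OVX-vehicle rats its lowest, median and highest values were 6.17, 7.71 and 9.80 FPKM, against 8.48, 9.91 and 15.6 FPKM in Sham-vehicle rats. All 8 OVX-vehicle rats lay below the Sham-vehicle median and 6 of them lay below every Sham-vehicle rat, but the groups overlapped. The counts behind these values were 86 to 125 per OVX-vehicle rat and 107 to 210 per Sham-vehicle rat. Gal averaged 7.77 ± 1.13 FPKM in OVX-vehicle rats and 10.7 ± 2.43 FPKM in Sham-vehicle rats (SD, n = 8 each). The log2 difference was -0.48 in edgeR (SE 0.13, 95% interval -0.74 to -0.21), with an unadjusted p of 0.000992 and an adjusted p of 0.725 in edgeR over 12645 genes. On log2(FPKM + 0.1) the difference was -0.44 with an exact permutation p of 0.00249, and the adjusted p over 15716 entries was 0.916. Without OVX-vehicle replicate 1 the exact permutation p was 0.00513, and with this rat counted as Sham-vehicle the difference was -0.39 and the p 0.0129.

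Between OVX-TPTD and OVX-vehicle rats, Gal differed by less than the spread between rats. The lowest, median and highest values were 6.30, 7.37 and 11.1 FPKM in OVX-TPTD rats, and 6 of the 8 lay below the OVX-vehicle median. Replicates 2 and 8 of the OVX-TPTD group, at 11.1 and 9.95 FPKM, lay above every OVX-vehicle rat, and the other 6 lay below every Sham-vehicle rat. The mean was 7.98 ± 1.66 FPKM in OVX-TPTD rats against 7.77 ± 1.13 FPKM in OVX-vehicle rats (SD, n = 8 each), a log2 difference of 0.04 with a 95% interval from -0.23 to 0.31 (adjusted p = 0.995 from edgeR). Against the Sham-vehicle group, the difference of the OVX-TPTD group was -0.44 (SE 0.13, adjusted p = 0.225 from edgeR, exact permutation p = 0.0123 on log2(FPKM + 0.1)). Both OVX groups were set against the same Sham-vehicle rats.

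**Figure D1:**
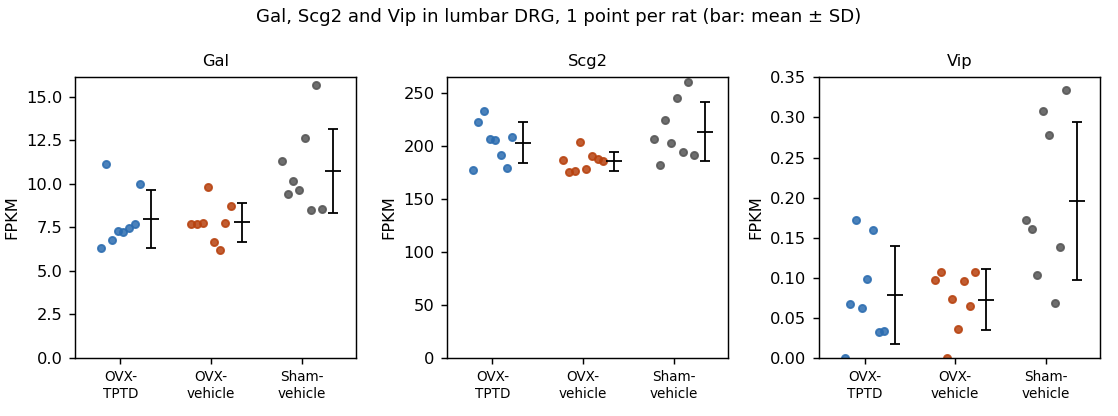
FPKM of Gal, Scg2 and Vip on the vertical axes, with 1 point per rat in the OVX-TPTD, OVX-vehicle and Sham-vehicle groups (8 rats each) and bars for the mean ± SD. The Gal points of the OVX-vehicle rats lie between 6.17 and 9.80 FPKM and those of the Sham-vehicle rats between 8.48 and 15.6 FPKM, and the Vip points rest on 0 to 9 counts.

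Scg2 encodes secretogranin II, a granin of dense-core vesicles that is also the precursor of the peptide secretoneurin, and lies on rn6 at chr9:85237537-85242842 on the minus strand. In OVX-vehicle rats the lowest, median and highest values were 176, 186 and 203 FPKM, against 182, 205 and 261 FPKM in Sham-vehicle rats. All 8 OVX-vehicle rats lay below the Sham-vehicle median, 3 of them below every Sham-vehicle rat, and 4 Sham-vehicle rats lay above every OVX-vehicle rat. The means were 186 ± 9.10 FPKM in OVX-vehicle and 214 ± 27.7 FPKM in Sham-vehicle rats (SD, n = 8 each). The log2 difference was -0.21 in edgeR (SE 0.06, adjusted p = 0.806), and the exact permutation p was 0.00917 on log2(FPKM + 0.1). Without OVX-vehicle replicate 1 that p was 0.0166, and with this rat counted as Sham-vehicle it was 0.0282. At 7545 to 11482 counts per rat in these groups, counting error is small beside the spread between rats. In OVX-TPTD rats Scg2 had a lowest, median and highest value of 178, 207 and 233 FPKM, and 5 of the 8 rats lay above every OVX-vehicle rat. The log2 difference from the OVX-vehicle group was 0.13 in edgeR (SE 0.06, 95% interval -0.00 to 0.26, adjusted p = 0.995), with an exact permutation p of 0.0417. That p was over 0.05 in 10 of the 16 computations that left out 1 rat, up to 0.0794, and at 0.0505 without OVX-vehicle replicate 1. Between OVX-TPTD and Sham-vehicle rats the difference was -0.08 (SE 0.06, adjusted p = 0.513 from edgeR, exact permutation p = 0.418).

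Vip encodes vasoactive intestinal peptide, which shares its receptors with PACAP. It was too low for the edgeR filter and was compared on FPKM. In OVX-vehicle rats its lowest, median and highest values were 0, 0.0845 and 0.108 FPKM, against 0.0687, 0.167 and 0.334 FPKM in Sham-vehicle rats. All 8 OVX-vehicle rats lay below the Sham-vehicle median and 6 Sham-vehicle rats lay above every OVX-vehicle rat. In OVX-TPTD rats the lowest, median and highest values were 0, 0.0649 and 0.171 FPKM, which spanned the OVX-vehicle range. The reads summed over 8 rats were 19 counts in the OVX-TPTD group, 17 counts in the OVX-vehicle group and 44 counts in the Sham-vehicle group. The log2(FPKM + 0.1) difference was -0.74 between OVX-vehicle and Sham-vehicle rats (exact permutation p = 0.00357) and -0.73 between OVX-TPTD and Sham-vehicle rats (exact permutation p = 0.0120), a scale that understates the change of so low a gene. Without OVX-vehicle replicate 1, the exact permutation p of the OVX-vehicle against Sham-vehicle difference was 0.00513, and with this rat counted as Sham-vehicle it was 0.00691. Without the filter, edgeR gave -1.36 for OVX-vehicle against Sham-vehicle rats (SE 0.43, adjusted p = 0.812, and 0.812 to 0.851 over edgeR without the filter and DESeq2). Between OVX-TPTD and OVX-vehicle rats the log2(FPKM + 0.1) difference was 0.01 (exact permutation p = 0.968). In each OVX group 1 rat had 0 counts.

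Over the 11 entries, 3 had an exact permutation p under 0.05 between OVX-vehicle and Sham-vehicle rats (Gal, Scg2 and Vip, all lower in OVX-vehicle), where 4.75% of 15716 entries had such a p. Between OVX-TPTD and OVX-vehicle rats 1 entry had one (Scg2, higher in OVX-TPTD), where 3.79% of all entries did. Between OVX-TPTD and Sham-vehicle rats 2 entries had one (Gal and Vip, both lower in OVX-TPTD), where 12.1% of all entries did. The median log2(FPKM + 0.1) difference of the 11 entries was -0.05, 0.01 and -0.07 in these 3 comparisons, beside 0.0096, 0 and 0.011 over all entries. After adjustment over all entries, 0 of 15716 passed in each comparison, and the smallest p the test can give is 0.000155. In edgeR, 0 of the 10 entries tested passed in each comparison. The shares of all 12645 genes called by edgeR were 0.00791% for OVX-vehicle against Sham-vehicle, 0% for OVX-TPTD against OVX-vehicle and 0.0316% for OVX-TPTD against Sham-vehicle. At an unadjusted p under 0.05, edgeR gave 2, 0 and 1 of the 10 entries in the same order of comparisons. DESeq2 gave 3, 1 and 2 of 11 entries unadjusted and limma gave 3, 0 and 2 of 11, and after adjustment both gave 0 of 11 in each comparison.

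**Figure D2:**
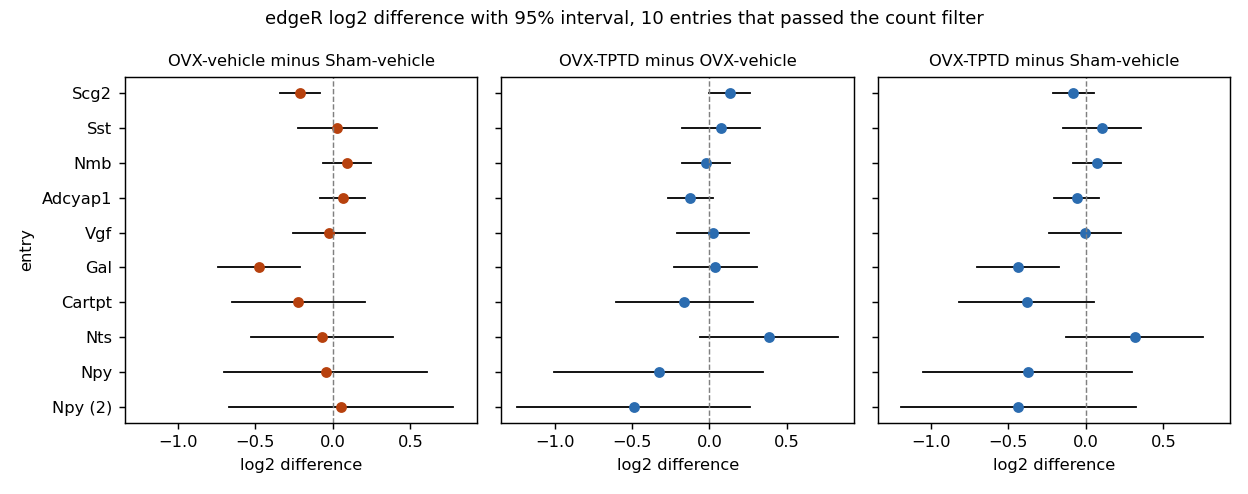
Log2 differences from edgeR (horizontal axis) with 95% intervals for the 10 entries that passed the count filter, in 3 comparisons named above the panels. The interval of Gal runs from -0.74 to -0.21 for OVX-vehicle minus Sham-vehicle, and those of the 2 Npy entries are the widest of these 10.

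The somatostatin gene Sst, whose peptide is released by sensory neurons and inhibits neurons through Gi-coupled receptors, averaged 104 ± 20.1 FPKM in OVX-TPTD, 98.2 ± 20.0 FPKM in OVX-vehicle and 95.6 ± 15.5 FPKM in Sham-vehicle rats (SD, n = 8 each). Its values spread from 69.3 to 130 FPKM over the 24 rats, and the 3 groups overlapped. The difference between OVX-vehicle and Sham-vehicle rats was 0.03 on the log2 scale with a 95% interval from -0.22 to 0.28. Between OVX-TPTD and OVX-vehicle rats it was 0.08 with an interval from -0.18 to 0.33. Nmb, the gene of neuromedin B, a bombesin-like peptide of itch and pain neurons in rodents, averaged 73.9 ± 9.40 FPKM in OVX-TPTD, 75.1 ± 7.99 FPKM in OVX-vehicle and 69.9 ± 7.86 FPKM in Sham-vehicle rats. In OVX-vehicle rats 7 of 8 values exceeded the median of the Sham-vehicle group, with a log2 difference of 0.09 (95% interval -0.06 to 0.25).

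Adcyap1, whose product PACAP raises cAMP through its receptor, had the smallest coefficient of variation of the 10 members over 24 rats, 10.3% of the mean FPKM. It averaged 23.9 ± 2.34 FPKM in OVX-TPTD, 26.0 ± 3.02 FPKM in OVX-vehicle and 24.7 ± 2.12 FPKM in Sham-vehicle rats. The OVX-TPTD minus OVX-vehicle difference was -0.12 (SE 0.07, 95% interval -0.27 to 0.02, adjusted p = 0.995 from edgeR), with 6 of 8 OVX-TPTD rats below the OVX-vehicle median. Vgf, a granin induced by nerve growth factor, had 10.6 ± 1.17 FPKM in OVX-TPTD, 10.5 ± 1.83 FPKM in OVX-vehicle and 10.6 ± 2.28 FPKM in Sham-vehicle rats. Its log2 differences were -0.03, 0.02 and -0.01 for OVX-vehicle against Sham-vehicle, OVX-TPTD against OVX-vehicle and OVX-TPTD against Sham-vehicle, and the widest of the 3 intervals was -0.26 to 0.21.

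Nts, the gene of neurotensin, spread most among OVX-TPTD rats. Its lowest, median and highest values were 1.23, 2.43 and 4.33 FPKM in OVX-TPTD, 1.22, 2.02 and 2.90 FPKM in OVX-vehicle and 1.39, 2.02 and 3.12 FPKM in Sham-vehicle rats. The log2 difference between OVX-TPTD and OVX-vehicle rats was 0.39 (SE 0.22, 95% interval -0.06 to 0.83, adjusted p = 0.995 from edgeR), with 2 OVX-TPTD rats above every OVX-vehicle rat. Cartpt, the CART precursor, averaged 1.76 ± 0.463 FPKM in OVX-TPTD, 1.96 ± 0.740 FPKM in OVX-vehicle and 2.28 ± 0.527 FPKM in Sham-vehicle rats. In OVX-TPTD rats 7 of 8 lay below the Sham-vehicle median, with a log2 difference of -0.38 (SE 0.21, 95% interval -0.82 to 0.05, adjusted p = 0.373 from edgeR).

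Npy is annotated at chr4:79557856-79565057 and chr4:79574010-79581210 on the plus strand of rn6, and reads were shared between the 2 copies, since 35 of its 48 count values are not whole (tolerance 0.001). The 2 entries are therefore uncertain on their own, and their FPKM were summed for the levels. Neuropeptide Y had 1.57 ± 0.447 FPKM in OVX-TPTD, 2.12 ± 1.39 FPKM in OVX-vehicle and 2.09 ± 1.06 FPKM in Sham-vehicle rats, from 7 to 56 counts per rat. OVX-vehicle replicate 2 stood at 5.29 FPKM, above the other 23 rats, which ran up to 3.60 FPKM. With the entries summed, the log2 differences were -0.00 for OVX-vehicle against Sham-vehicle (95% interval -0.67 to 0.67) and -0.40 for OVX-TPTD against OVX-vehicle (95% interval -1.09 to 0.28, adjusted p = 0.995 from edgeR). Npy is also a peptide of sympathetic neurons. The 3 sympathetic markers in the table (Th, Dbh and Slc6a2) summed to 0.755 to 1.19 FPKM in OVX-TPTD rats, 0.622 to 1.27 FPKM in OVX-vehicle rats and 0.694 to 3.53 FPKM in Sham-vehicle rats, and their part in the Npy and Vip values was not tested.

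**Figure D3:**
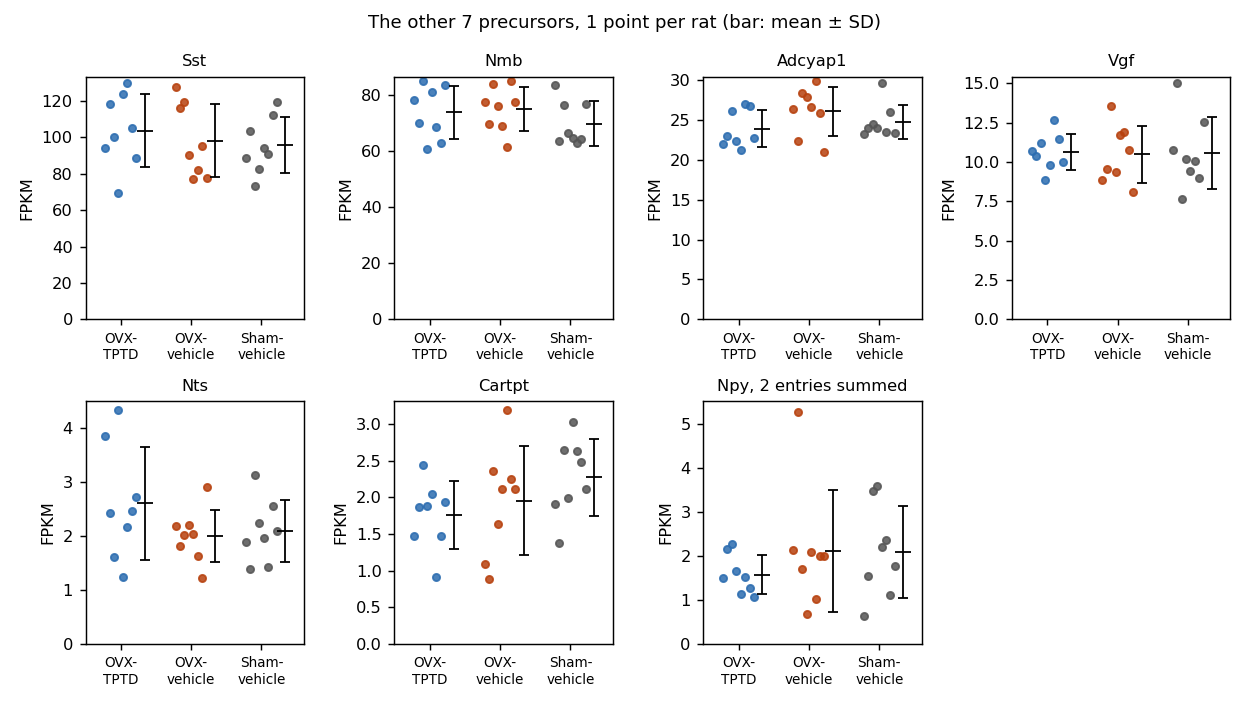
FPKM (vertical axes, from 0) of Sst, Nmb, Adcyap1, Vgf, Nts, Cartpt and the summed Npy entries, with 1 point per rat in the OVX-TPTD, OVX-vehicle and Sham-vehicle groups (8 rats each) and bars for the mean ± SD. The 3 groups overlap for each of the 7 genes, and OVX-vehicle replicate 2 stands apart for Npy at 5.29 FPKM.

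Some markers of other cells differed in the comparisons in which members did, before adjustment. Between OVX-vehicle and Sham-vehicle rats, 4.75% of all entries had an exact permutation p under 0.05. At such a p, 1 of 5 satellite glia markers (Apoe, log2(FPKM + 0.1) difference 0.15) and 1 of 4 Schwann cell markers (Mbp, a myelin protein, 0.25) were higher. Of the neuronal markers 0 of 6 had such a p, and of the nociceptor markers 0 of 4. In lists this short, a count of 0 cannot be told apart from the share of all entries. Of the other 4 satellite glia markers, Cdh19 was at 0.07, Glul at -0.03, Kcnj10 at -0.03 and Fabp7 at -0.35 in the same comparison, and the median of the 5 was -0.03. With OVX-vehicle replicate 1 counted as Sham-vehicle, the exact permutation p was 0.0758 for Apoe and 0.114 for Mbp, and without this rat it was 0.0109 for Apoe and 0.0141 for Mbp. The summed satellite glia markers ran from 1960 to 2600 FPKM in OVX-TPTD, 1930 to 2360 FPKM in OVX-vehicle and 1840 to 2220 FPKM in Sham-vehicle rats. The summed nociceptor markers ran from 268 to 366 FPKM in OVX-TPTD, 299 to 382 FPKM in OVX-vehicle and 285 to 392 FPKM in Sham-vehicle rats. Between OVX-TPTD and OVX-vehicle rats, where Scg2 was higher, 2 of 4 Schwann cell markers were lower at such a p, Prx among them. So was 1 of 5 skeletal muscle markers (Acta1). All 4 Schwann cell markers had a difference below 0, with a median log2(FPKM + 0.1) difference of -0.17. Between OVX-TPTD and Sham-vehicle rats, where Gal and Vip were lower, 1 of 3 sympathetic markers (Th, log2(FPKM + 0.1) difference -0.77) was lower at such a p. Dbh at 0.09 and Slc6a2 at 0.11 went the other way without such a p, and the median of the 3 was 0.09. Of the nociceptor markers, 1 of 4 was lower at such a p. Apoe and Mbp were higher, with a p of 0.0868 for Mbp (exact permutation) where OVX-vehicle replicate 1 was counted as Sham-vehicle. Of all entries, 3.79% had an exact permutation p under 0.05 between OVX-TPTD and OVX-vehicle rats, and 12.1% between OVX-TPTD and Sham-vehicle rats. Each marker of these lists was above 0 in at least 1 rat, and the part of the markers in the values of the precursors was not tested.

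Deviations from the group means of log2 CPM (counts scaled to the library size) were correlated for the 45 pairs of members over 24 rats, with 100000 permutations of rats within groups. None of the 45 passed Benjamini-Hochberg adjustment, and 6 had an unadjusted permutation p under 0.05. The strongest pair was Gal and Scg2 (Pearson r = 0.635, permutation p = 0.0032, adjusted p = 0.144, and Spearman rho = 0.525, permutation p = 0.0168, adjusted p = 0.19). Without the 2 rats whose Gal deviation was farthest from the median r was 0.469. The r within groups was 0.348 in OVX-TPTD, 0.416 in OVX-vehicle and 0.906 in Sham-vehicle rats. Sham-vehicle replicates 7 and 5 were the highest 2 rats for both genes, with 15.6 and 12.6 FPKM for Gal and 261 and 246 FPKM for Scg2. Scg2 and Vgf, both granins, went in opposite directions (r = -0.523, adjusted permutation p = 0.169, and rho = -0.59, adjusted permutation p = 0.146).

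**Figure D4:**
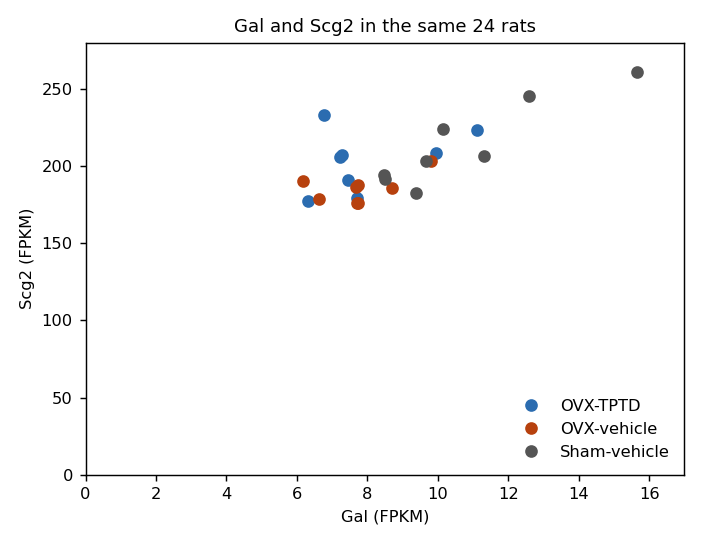
Scg2 (vertical axis, FPKM) against Gal (horizontal axis, FPKM), with 1 point per rat for the OVX-TPTD, OVX-vehicle and Sham-vehicle groups (8 rats each). The Sham-vehicle rats with 15.6 and 12.6 FPKM of Gal had 261 and 246 FPKM of Scg2, and the OVX-vehicle rats gather at 6.17 to 9.80 FPKM of Gal and 176 to 203 FPKM of Scg2.

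**Figure D5:**
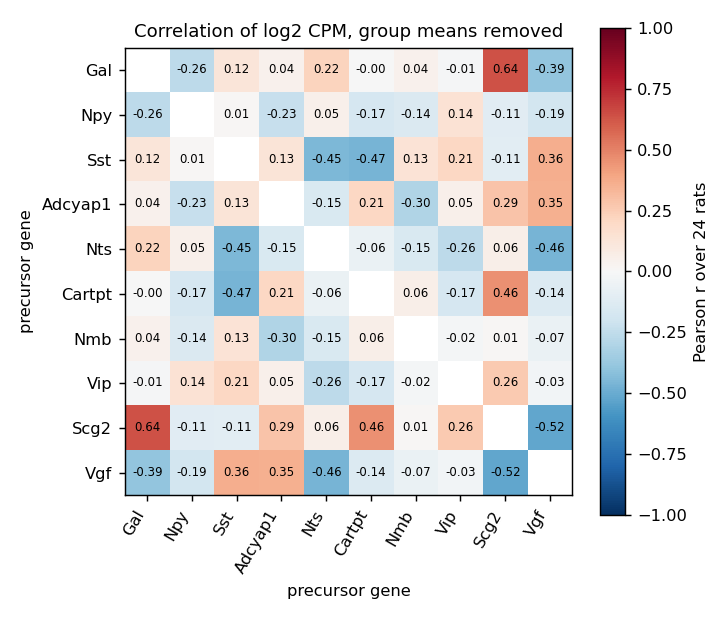
Pearson r between the 10 precursors over 24 rats, from log2 CPM with the group means removed, with red for positive and blue for negative values. Gal and Scg2 reach 0.64, Scg2 and Vgf -0.52, and 0 of the 45 pairs passed adjustment.

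Over 24 rats, the genes whose deviations were most like those of Gal were Cdh8 (r = 0.765), Inpp4b (r = 0.689) and Atp6v1c2 (r = 0.663), out of 11396 genes with a mean of at least 1 FPKM that passed the count filter, as a description with no test. The most like Scg2 were Gnmt, Kcne4 and Ap1s3 (r = 0.723, 0.707 and 0.696). Vgf had the highest r of the 10 members with any gene: 0.857 with the potassium channel gene Kcnc4, 0.843 with the calcium channel subunit gene Cacnb3 and 0.842 with Dolpp1. Its deviations also followed the mean of the neuronal markers (r = 0.614) and of the nociceptor markers (r = 0.663) and ran against that of the satellite glia markers (r = -0.561). Scg2 ran with the satellite glia markers (r = 0.522) and Adcyap1 with the nociceptor markers (r = 0.545), while Gal had an r of -0.08 with the neuronal and -0.10 with the nociceptor markers. These values share libraries and have n = 24 rats. For the remaining members, the most like genes were Ripk1, Ppp2r1b and Rpa3 for Npy, Adk, Nostrin and Dhps for Sst, Unc79, Tspyl1 and Oasl2 for Adcyap1, Zfp263, Dixdc1 and Hps5 for Nts, Ccnd3 and Kctd15 for Cartpt, Atp6v1f, Tspan3 and Rplp2 for Nmb, and Wbscr27, Reg3a and Polk for Vip, with r from 0.612 to 0.759.

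The list of 19 receptor genes gave 19 entries with a value above 0, since Galr2 is listed at 2 places and Sstr5 was at 0 in all rats. Of these 19, 0 had an exact permutation p under 0.05 between OVX-vehicle and Sham-vehicle rats, 1 (Adcyap1r1) between OVX-TPTD and OVX-vehicle rats and 1 (Nmbr) between OVX-TPTD and Sham-vehicle rats, against 4.75%, 3.79% and 12.1% of all entries. Their median log2(FPKM + 0.1) differences were -0.02, -0.03 and -0.04. Npy1r, a Gi-coupled receptor of neuropeptide Y, was the most abundant at 28.0 ± 3.13 FPKM in OVX-TPTD, 28.5 ± 4.24 FPKM in OVX-vehicle and 28.8 ± 4.65 FPKM in Sham-vehicle rats (SD, n = 8 each). Sort1, a sorting receptor that binds neurotensin, followed, with 15.8 to 22.2 FPKM in OVX-TPTD, 17.5 to 22.2 FPKM in OVX-vehicle and 18.4 to 22.6 FPKM in Sham-vehicle rats. Adcyap1r1, the PACAP receptor, was at 1.31 ± 0.205 FPKM in OVX-TPTD and 1.52 ± 0.159 FPKM in OVX-vehicle rats, a log2(FPKM + 0.1) difference of -0.21 (exact permutation p = 0.0396), and that p was over 0.05 in 10 of the 16 computations without 1 rat and 0.0190 without OVX-vehicle replicate 1. Nmbr, the neuromedin B receptor, was at 0.101 ± 0.0589 FPKM in OVX-TPTD and 0.184 ± 0.0590 FPKM in Sham-vehicle rats (log2(FPKM + 0.1) difference -0.53, exact permutation p = 0.0149), which rests on 0 to 8 counts per rat.

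Of 13 entries for genes that process and store peptides, 1 had an exact permutation p under 0.05 between OVX-vehicle and Sham-vehicle rats, 0 between OVX-TPTD and OVX-vehicle rats and 1 between OVX-TPTD and Sham-vehicle rats, against 4.75%, 3.79% and 12.1% of all entries. Their median log2(FPKM + 0.1) differences were -0.04, -0.03 and -0.09, beside 0.0096, 0 and 0.011 over all entries. The granin Scg3 was at 249 ± 11.7 FPKM in OVX-TPTD, 241 ± 11.7 FPKM in OVX-vehicle and 239 ± 16.7 FPKM in Sham-vehicle rats, and Cpe, the carboxypeptidase that trims peptide intermediates, at 218 ± 14.3, 222 ± 7.34 and 226 ± 14.5 FPKM in the same order (SD, n = 8 each). Ptprn2, a membrane protein of dense-core vesicles, was at 8.39 ± 1.46 FPKM in OVX-TPTD, 8.72 ± 0.857 FPKM in OVX-vehicle and 9.72 ± 0.620 FPKM in Sham-vehicle rats. Its log2(FPKM + 0.1) difference was -0.16 for OVX-vehicle against Sham-vehicle rats (exact permutation p = 0.0183) and -0.23 for OVX-TPTD against Sham-vehicle rats (exact permutation p = 0.0291). With OVX-vehicle replicate 1 counted as Sham-vehicle, these p values were 0.17 and 0.0632.

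Of 17 other peptide precursors, 5 had an exact permutation p under 0.05 between OVX-vehicle and Sham-vehicle rats, with 4 higher (Tac1, Calca, Penk and Nppb) and 1 lower (Pdyn) in OVX-vehicle, 1 between OVX-TPTD and OVX-vehicle rats (Nppb, higher in OVX-TPTD), and 4 between OVX-TPTD and Sham-vehicle rats (Tac1, Calca, Calcb and Nppb, higher in OVX-TPTD). Of all entries, 4.75%, 3.79% and 12.1% had such a p. The median log2(FPKM + 0.1) differences of the 17 were 0.26, 0.03 and 0.27, beside 0.0096, 0 and 0.011 over all entries. The study chose Tac1, Calca and Penk on these samples, so their direction is not independent evidence. By quantitative PCR, it also reported these genes as higher after OVX. Tac1, which encodes substance P, rose past adjustment in both OVX groups, the only gene of these 4 lists to do so in edgeR. It ran from 210 to 251 FPKM in OVX-TPTD, 196 to 265 FPKM in OVX-vehicle and 165 to 203 FPKM in Sham-vehicle rats, with log2 differences from Sham-vehicle of 0.32 in both OVX groups (SE 0.05, adjusted p = 0.0173 for OVX-TPTD and 0.0269 for OVX-vehicle in edgeR). The call for OVX-vehicle held in 14 of 24 fits without 1 rat (adjusted p from 0.00384 to 0.114 in edgeR, 0.0797 without OVX-vehicle replicate 1), and that for OVX-TPTD in 22 of 24. With OVX-vehicle replicate 1 counted as Sham-vehicle, neither held (log2 differences of 0.25 for OVX-TPTD and 0.22 for OVX-vehicle, adjusted p of 0.336 and 1 in edgeR). Nppb, the gene of a natriuretic peptide of itch neurons in mice, was at 2.39 ± 0.954 FPKM in OVX-TPTD, 1.40 ± 0.893 FPKM in OVX-vehicle and 0.622 ± 0.416 FPKM in Sham-vehicle rats (SD, n = 8 each). Its log2 difference between OVX-TPTD and Sham-vehicle rats was 1.89 (SE 0.38, adjusted p = 0.0543 from edgeR), and its differences for OVX-vehicle against Sham-vehicle and OVX-TPTD against OVX-vehicle each went over an exact p of 0.05 in 8 of 16 computations without 1 rat. Calca, which encodes CGRP, was at 297 ± 37.1, 269 ± 34.8 and 234 ± 31.2 FPKM in OVX-TPTD, OVX-vehicle and Sham-vehicle rats, and its p of 0.0421 for OVX-vehicle against Sham-vehicle (exact permutation) was over 0.05 in 13 of 16 such computations. With OVX-vehicle replicate 1 counted as Sham-vehicle, the exact permutation p for OVX-vehicle against Sham-vehicle was 0.0929 for Calca, 0.237 for Nppb, 0.0545 for Penk and 0.0501 for Pdyn. Calcb, the second CGRP gene, was at 176 ± 22.1, 156 ± 27.6 and 139 ± 15.9 FPKM. Penk, the enkephalin precursor, was at 5.11 ± 0.787, 5.64 ± 0.481 and 4.34 ± 1.26 FPKM, and Pdyn, the dynorphin precursor, at 0.108 ± 0.0554, 0.0753 ± 0.0409 and 0.170 ± 0.0717 FPKM, in the same order of groups. The Pdyn values rest on 0 to 13 counts per rat, and those of Nppb on 2 to 16 counts in Sham-vehicle rats and up to 50 in OVX-TPTD rats.

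Gal, Npy and Vip are induced together with an axon injury program after nerve section in rats. Of 9 genes of that program (Atf3, Sprr1a, Gap43, Sox11, Jun, Csf1, Gadd45a, Ecel1 and Flrt3), 0 had an exact permutation p under 0.05 in any of the 3 comparisons. The shares of all entries with such a p were 4.75%, 3.79% and 12.1%, and with 9 genes a count of 0 cannot be told apart from them. In edgeR 0 of the 8 tested passed adjustment in each comparison. Their median log2(FPKM + 0.1) differences were -0.05, 0.03 and -0.03, beside 0.0096, 0 and 0.011 over all entries. Gap43, a growth cone protein, was at 181 ± 13.1 FPKM in OVX-TPTD, 178 ± 8.90 FPKM in OVX-vehicle and 176 ± 9.94 FPKM in Sham-vehicle rats. Jun, a transcription factor subunit, was at 28.9 ± 2.17, 28.3 ± 3.51 and 30.7 ± 4.12 FPKM in the same order (SD, n = 8 each). Atf3 spread most in Sham-vehicle rats, from 2.79 to 11.3 FPKM with a median of 4.97 FPKM. It ran from 3.83 to 5.55 FPKM in OVX-vehicle and from 3.51 to 6.55 FPKM in OVX-TPTD rats.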

How the data were processed

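Polyadenylated RNA of L4-5 DRG from 24 rats was sequenced as stranded paired-end libraries. The authors aligned the reads to rn6 with TopHat2 2.0.14 (per the submitters' processing notes) and deposited an expected count (86.4% of the values whole within 0.001) and an FPKM value, scaled by the authors to gene length and library, for each of 17811 entries and each rat. Stranded counting is not stated for the counts. Expected counts were rounded, filtered with filterByExpr and fitted with edgeR 4.0.16 (quasi-likelihood, TMM factors from 0.969 to 1.02, 3 groups, Benjamini-Hochberg at 0.05) in R 4.3.3. FPKM were compared on log2(FPKM + 0.1), over the 15716 entries above 0 in any rat, with an exact two-sided permutation test over 12870 divisions of 16 rats. The procedures were tested on simulated data.

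The members and the lists were chosen with earlier results of these data known. The text names the 10 members, of each list the 2 genes of highest mean FPKM and those with an exact p under 0.05, and for each member the 3 most like genes. The Atf3 values were added outside this rule, for their spread in Sham-vehicle rats. Alternatives were DESeq2 1.42.0, limma 3.58.1, no TMM, no filter, other pseudocounts, entries above 0 in all rats, the 2 groups alone, the replicate number as a block, each rat left out, and OVX-vehicle replicate 1 counted as Sham-vehicle. Summing the Npy entries was chosen after the data were seen. Counts of every 2 rats of a group differed by more than sampling noise (chi-square of 5.59 to 39.8 per gene). At 15573490 to 19069926 counts per rat, Vip and Nmbr have under 10 counts in each rat. A few genes that the naming rule or the marker lists would give are not reported here.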

Additional observations from a re-analysis of the deposited data

Results flagged for a closer look

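In 36 sets of 8 rats (11 entries and the library total in 3 groups), 3 had a rat far from the other 7, and chance gives about 1 in 20 such sets. OVX-vehicle replicate 2 was far above the others for both Npy entries, at 2.90 FPKM for the first and 2.38 FPKM for the second. The 2 entries share reads and are 1 gene. Without this rat, the log2 difference of the first Npy entry between OVX-vehicle and Sham-vehicle rats was -0.41 in edgeR, against -0.05 with it, and that of the second was -0.28, against 0.05 with it, and neither passed adjustment. Sham-vehicle replicate 5 was far above the others for Adcyap1, at 29.5 FPKM.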

How the results depend on the processing

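In all alternatives, 0 members were called by edgeR or DESeq2 in the 3 comparisons. Gal between OVX-vehicle and Sham-vehicle rats ran from -0.53 to -0.38 over 31 alternatives (adjusted p from 0.279 to 1), and Scg2 from -0.24 to -0.17. The replicate numbers did not pair the rats: the correlation of same-numbered rats ran from -0.0917 to 0.114, with 1 of 24 over 0.1. With the replicate block, Gal was at -0.47 (adjusted p = 0.642) and Scg2 at -0.21 for OVX-vehicle against Sham-vehicle rats, and 0 members were called by edgeR. The members with an exact p under 0.05 stayed at 3 for OVX-vehicle against Sham-vehicle in each computation without 1 rat. For OVX-TPTD against OVX-vehicle they ran from 0 to 1 without 1 rat, and were 0 by limma, the cause of which was not tested. They were also 0 with OVX-vehicle replicate 1 counted as Sham-vehicle. In this comparison that only leaves the rat out, and the exact permutation p of Scg2 was 0.0505 either way. The Scg2 p of that comparison was over 0.05 without OVX-TPTD replicate 2, 3, 4, 5 or 8 or OVX-vehicle replicate 1, 2, 3, 5 or 8. For OVX-TPTD against Sham-vehicle they ran from 2 to 3 without 1 rat and were 1 among the entries above 0 in all rats, since that filter drops Vip. Over all genes, edgeR called 1, 0 and 4 in the 3 comparisons, edgeR with the replicate block 0, 0 and 10, edgeR without TMM 1, 0 and 9, DESeq2 7, 1 and 40, and edgeR with OVX-vehicle replicate 1 counted as Sham-vehicle 0, 0 and 1. The Tac1 call for OVX-vehicle against Sham-vehicle was also lost with the replicate block and with the 2 groups alone, and without Sham-vehicle replicate 2, 3, 4, 5 or 6 or OVX-vehicle replicate 1, 2, 3, 4 or 7, and that for OVX-TPTD against Sham-vehicle without Sham-vehicle replicate 4 or OVX-TPTD replicate 6. None of the 45 correlations passed on the log2(FPKM + 0.1) scale either.

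Differences near 0 changed sign, none of them called. With OVX-vehicle replicate 1 counted as Sham-vehicle, edgeR gave -0.090 for Sst and 0.029 for Vgf (OVX-vehicle against Sham-vehicle), -0.0073 for Vgf (OVX-TPTD against OVX-vehicle) and 0.022 for Vgf (OVX-TPTD against Sham-vehicle). Without TMM, Vgf was at 0.0089 for OVX-TPTD against Sham-vehicle, and with a pseudocount of 0.01, Vip was at -0.050 for OVX-TPTD against OVX-vehicle. Without 1 rat, the edgeR differences for OVX-vehicle against Sham-vehicle ran from -0.41 to 0.091 and from -0.28 to 0.21 for the 2 Npy entries, from -0.17 to 0.034 for Nts, from -0.036 to 0.075 for Sst and from -0.088 to 0.066 for Vgf. For OVX-TPTD against OVX-vehicle they ran from -0.057 to 0.010 for Nmb, from -0.037 to 0.091 for Gal, from -0.45 to 0.029 for the first Npy entry and from -0.021 to 0.082 for Vgf, and on FPKM from -0.045 to 0.076 for Gal and from -0.10 to 0.11 for Vip. For OVX-TPTD against Sham-vehicle, Vgf ran from -0.063 to 0.089. For Vip, Npy, Nmbr, Pdyn and Nppb, among others, the number of reads limits the precision.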
